A study of Mus musculus with 6 samples.

Results

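The genes described here are 8 of the 53379 genes counted in the RNA of sorted splenic follicular helper T (Tfh) cells. They are 8 genes known from basophils and mast cells: the receptor genes *Fcer1a*, *Ms4a2* and *Cd200r3*, the granule protease genes *Mcpt8*, *Prss34* and *Cpa3*, the histamine enzyme gene *Hdc*, and *Gata2*. They were chosen from earlier measured values of these same mice, among them the difference between the groups and the common variation of the genes. *Fcer1a*, *Cd200r3* and *Ms4a2* are also in the list of genes lower in *Prdm1*-CKO mice that the study drew up from these mice. The levels and fold changes of the 8 genes are therefore given as a description, with no test.

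Basophils and mast cells carry IgE on the high-affinity IgE receptor and release histamine, proteases and cytokines when antigen cross-links it. The receptor is built of an alpha chain that binds IgE, a beta chain that amplifies the signal and a gamma chain shared with other Fc receptors. The transcription factor GATA2 is needed for the development of both cell types, and basophils are found in blood and spleen, whereas mature mast cells live mainly in tissues. T cells are not known to make the receptor's alpha or beta chain.

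RNA was measured in Tfh cells of 3 CTL and 3 *Prdm1*-CKO mice, with 1 Smart-seq2 library per mouse. *Prdm1*-CKO mice carry floxed *Prdm1* (the gene of BLIMP-1) alleles, *Prdm1* fl/fl, and a CD11c-Cre transgene, which deletes the gene in CD11c-high dendritic cells and not by design in T cells. CTL mice are either *Prdm1* fl/fl without CD11c-Cre or *Prdm1* +/+ with CD11c-Cre, and the labels do not say which genotype each CTL mouse had. Their titles call the second group a knockout, while the genotype field calls it a knockdown. All mice were females of 6 to 8 weeks, immunized with NP-CGG, a hapten on a carrier protein, and killed on day 7. The sort kept live TCRβ+ CD4+ CXCR5+ PD1+ cells. By these markers the gate leaves out basophils and mast cells, and likewise macrophages and B cells. RNA of macrophage and B cell genes was nevertheless counted in all mice, as given below. Whether other cells remained after the sort was not tested. In bulk RNA, fewer cells of a type and less RNA per cell cannot be told apart.

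Total counts per library ran from 7147601 in CTL replicate 3 to 16973392 in *Prdm1*-CKO replicate 1. A floor of 3 counts, which covers counting error only, was worth 0.177 to 0.420 CPM by total count alone. All other levels in CPM are counts scaled by library size and by edgeR's TMM factor. CTL replicate 2 stood apart on the first principal component of log2 CPM (56.4% of the variance, 134.6 against -29.1 to -24.0 in the other mice). That library also had the fewest genes with a count, 16650 against 18480 to 21501 in the other mice. Its total count, 8623180, was above that of CTL replicate 3. The summed CPM of 10 T cell and Tfh marker genes lay between 3971 and 4992, so the labelled cell type was clearly present. The same sum for 10 macrophage genes lay between 518 and 1471 and for 10 B cell genes between 109 and 242. *Prdm1* itself, which the design deletes in dendritic cells only, lay between 27.5 and 30.9 CPM in all 6 mice and does not check the labels.

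The 8 genes were scattered over the genome. On GRCm38, *Fcer1a* lies on the minus strand at chr1:173221284-173227214, *Ms4a2* on the minus strand at chr19:11615523-11623719 and *Cd200r3* on the plus strand at chr16:44943678-44981380. *Mcpt8* lies on the minus strand at chr14:56082166-56085273, *Cpa3* on the minus strand at chr3:20215620-20242181, *Hdc* on the minus strand at chr2:126593667-126619299 and *Gata2* on the plus strand at chr6:88193891-88207032. *Prss34* is in the annotation in another version than in the count files, and its gene coordinates are not used. No exon of the 8 genes overlapped an exon of another gene. Of the 25-base words in their transcripts, the length of 1 read, 0% of *Fcer1a*, *Mcpt8*, *Prss34* and *Cpa3* words also occurred in another gene, and 5.03% of *Ms4a2* and 4.40% of *Cd200r3* words did.

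Because GATA factors are known regulators of basophil and mast cell genes, the 250 bases before each gene's RefSeq start (GRCm38.p6) were searched on both strands for 6-letter GATA words. They are AGATAA and the variants of it that begin with T, end with G, or both. The sequences shown are those of the 3 receptor genes, whose levels differed most between the groups, of *Cpa3*, which varied most closely with *Ms4a2*, and of *Mcpt8*, which has no such word. They are read 5' to 3' along the gene's strand, and capitals mark the GATA words. *Fcer1a* is from chr1:173227230-173227479 (minus strand), *Ms4a2* from chr19:11623720-11623969 (minus), *Cd200r3* from chr16:44943428-44943677 (plus), *Cpa3* from chr3:20242182-20242431 (minus) and *Mcpt8* from chr14:56085198-56085447 (minus).
Fcer1a: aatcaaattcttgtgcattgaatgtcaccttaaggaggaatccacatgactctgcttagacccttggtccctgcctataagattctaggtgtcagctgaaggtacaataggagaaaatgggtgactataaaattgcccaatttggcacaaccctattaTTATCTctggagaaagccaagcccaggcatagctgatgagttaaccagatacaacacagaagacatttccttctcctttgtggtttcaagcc
Ms4a2: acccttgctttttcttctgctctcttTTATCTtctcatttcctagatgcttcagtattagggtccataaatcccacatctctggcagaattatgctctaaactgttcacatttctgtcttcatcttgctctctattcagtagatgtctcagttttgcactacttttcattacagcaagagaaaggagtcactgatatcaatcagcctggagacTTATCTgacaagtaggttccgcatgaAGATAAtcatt
Cd200r3: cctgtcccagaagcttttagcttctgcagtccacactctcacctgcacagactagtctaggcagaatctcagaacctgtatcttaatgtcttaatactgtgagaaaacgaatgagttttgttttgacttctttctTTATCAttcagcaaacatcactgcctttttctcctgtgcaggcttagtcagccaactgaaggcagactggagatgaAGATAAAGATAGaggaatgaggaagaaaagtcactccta
Cpa3: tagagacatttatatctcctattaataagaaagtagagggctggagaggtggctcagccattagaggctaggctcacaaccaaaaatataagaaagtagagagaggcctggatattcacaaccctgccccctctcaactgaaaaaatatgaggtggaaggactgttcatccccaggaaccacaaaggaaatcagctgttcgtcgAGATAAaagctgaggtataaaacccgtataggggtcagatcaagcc
Mcpt8: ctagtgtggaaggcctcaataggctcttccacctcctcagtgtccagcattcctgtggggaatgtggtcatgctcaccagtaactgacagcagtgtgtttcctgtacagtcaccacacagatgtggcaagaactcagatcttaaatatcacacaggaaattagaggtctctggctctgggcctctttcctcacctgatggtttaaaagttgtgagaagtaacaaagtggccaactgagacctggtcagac

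At least 1 GATA word was found for 6 of the 8 genes, against 26.5% of 32841 promoters of the same length. *Ms4a2* held 3, which began 224, 37 and 11 bases before the start, and *Cd200r3* held 3, at 115, 39 and 33 bases, of which the last 2 adjoin without overlap. *Fcer1a*, *Cpa3*, *Prss34* and *Hdc* held 1 each, at 92, 46, 31 and 221 bases, and *Gata2*, with 2 annotated starts, held none. The RUNX word TGTGGT occurred for 3 of the 8 genes, *Fcer1a*, *Cpa3* and *Mcpt8*, against 14.0% of promoters, and an E-box word, CACCTG or CAGCTG, for 4 of the 8 against 27.7%. None of these words overlaps another in its letters. A match is a description of the letters only, and binding was not measured.

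All 8 genes were detected in all 6 mice and passed the expression filter of edgeR, and their levels were low to moderate. Their mean CPM over the mice ran from 6.80 for *Fcer1a* to 19.5 for *Prss34*, where the median tested gene had 21.9. Compared per length, as CPM per kb of exon, *Prss34* had the highest mean level at 16.0, with exon length taken from the other version of the gene. It was followed by *Mcpt8* at 8.73, *Cpa3* at 7.29, *Fcer1a* at 6.81, *Ms4a2* at 5.47, *Hdc* at 2.92, *Cd200r3* at 2.38 and *Gata2* at 1.28. In CTL mice the order of the middle genes was *Fcer1a* (10.2 CPM per kb), *Cpa3* (9.40), *Ms4a2* (8.22) and *Mcpt8* (7.93), with a spread between mice that exceeded the gaps between these neighbours. In *Prdm1*-CKO mice *Mcpt8* (9.53) was followed by *Cpa3* (5.18), *Fcer1a* (3.43) and *Ms4a2* (2.73).

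The plot of CPM per mouse shows the 2 features that recurred among the 8 genes, a wide spread among CTL mice and a narrower band in *Prdm1*-CKO mice.

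**Figure D1:**
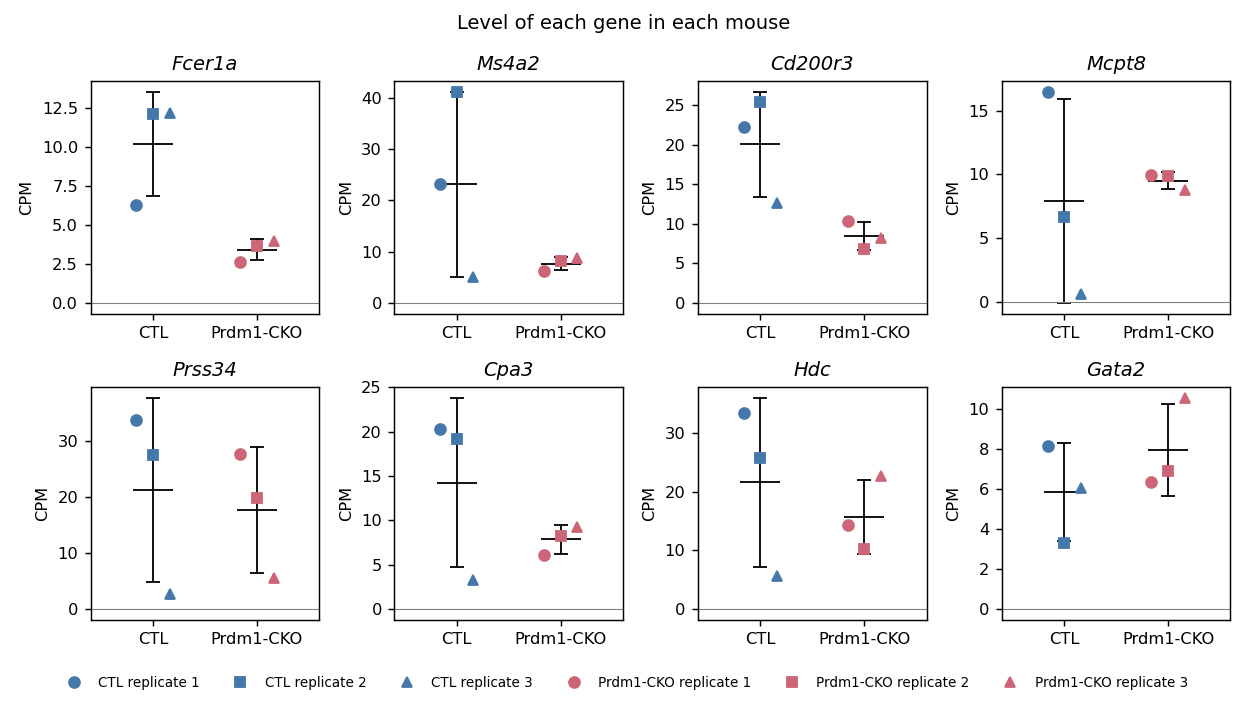
Level of each of the 8 genes in CPM (vertical axis, linear, scale set per gene) in the 3 CTL and 3 *Prdm1*-CKO mice. Points are mice, the long bar is the group mean and the whiskers are 1 SD (n = 3). For *Fcer1a* and *Cd200r3* all *Prdm1*-CKO mice sit below all CTL mice, and in 5 of the 8 genes CTL replicate 3 is the lowest mouse.

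The receptor genes had the largest differences between the groups, all toward lower levels in *Prdm1*-CKO mice. The study had already listed these 3 genes as lower in the same mice, so their direction and rank are not independent of that list. *Fcer1a* encodes the IgE-binding alpha chain of the high-affinity receptor. Listed by replicate number, here and below, it had 92, 102 and 82 counts in CTL and 47, 36 and 58 in *Prdm1*-CKO mice, or 6.30, 12.1 and 12.1 CPM against 2.65, 3.66 and 3.97 CPM. Every *Prdm1*-CKO mouse was below every CTL mouse, and CTL replicate 1 was the CTL mouse closest to them. CTL mice averaged 10.2 ± 3.35 CPM (SD, n = 3) and *Prdm1*-CKO mice 3.43 ± 0.692 CPM (SD, n = 3). The log2 fold change of *Prdm1*-CKO over CTL was -1.57 (standard error, SE, 0.44). With each mouse left out in turn it stayed between -1.83 and -1.40.

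*Cd200r3* encodes an activating receptor of the CD200 receptor family that marks basophils and mast cells in mice. It had 324, 214 and 85 counts in CTL and 184, 67 and 120 in *Prdm1*-CKO mice, or 22.2, 25.3 and 12.6 CPM against 10.4, 6.81 and 8.22 CPM. The groups again did not overlap, although CTL replicate 3 lay nearer to the *Prdm1*-CKO mice than to the other CTL mice. The log2 fold change was -1.24 (SE 0.35), between -1.48 and -1.05 with each mouse left out.

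*Ms4a2* encodes the beta chain of the IgE receptor, whose expression is largely limited to basophils and mast cells. It had 339, 347 and 34 counts in CTL and 110, 80 and 127 in *Prdm1*-CKO mice, or 23.2, 41.1 and 5.03 CPM against 6.20, 8.13 and 8.70 CPM. CTL replicates 1 and 2 were far above the *Prdm1*-CKO mice, whereas CTL replicate 3 was the lowest of all 6, so that the groups overlapped. CTL mice averaged 23.1 ± 18.0 CPM (SD, n = 3) and *Prdm1*-CKO mice 7.68 ± 1.31 CPM (SD, n = 3). The log2 fold change of -1.59 (SE 0.63) was -0.90 without CTL replicate 2, the library that stood apart, and -2.06 without CTL replicate 3. For *Fcer1a* and *Cd200r3* it was -1.43 and -1.05 without CTL replicate 2.

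The alpha and beta chains did not keep a fixed ratio to each other. Counts of *Ms4a2* per count of *Fcer1a* were 3.68, 3.40 and 0.415 in CTL mice, against 2.34, 2.22 and 2.19 in *Prdm1*-CKO mice, so the ratio was even among *Prdm1*-CKO mice and low in CTL replicate 3 alone. CTL replicate 3 shared the highest *Fcer1a* level with CTL replicate 2 while its *Ms4a2* level was the lowest. The gamma chain gene *Fcer1g*, which macrophages and other myeloid cells also use, was far more abundant at 332, 143 and 265 CPM in CTL and 337, 308 and 315 CPM in *Prdm1*-CKO mice. edgeR put its log2 fold change at 0.38 (SE 0.27, adjusted p = 0.996), opposite in sign to those of the alpha and beta chains, and the difference in sign was not tested.

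The protease genes had wide spreads among CTL mice, and their groups overlapped. *Mcpt8* encodes mast cell protease 8, which in spite of its name is made by mouse basophils. It had 241, 56 and 4 counts in CTL and 176, 97 and 128 in *Prdm1*-CKO mice, or 16.5, 6.63 and 0.592 CPM against 9.92, 9.86 and 8.77 CPM. *Prdm1*-CKO mice lay close together within the range of the CTL mice, and the highest CTL mouse had 27.9 times the level of the lowest. The log2 fold change was 0.24 (SE 0.83) and had no stable sign, at -0.28 without CTL replicate 3 and 1.38 without CTL replicate 1.

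*Prss34* encodes mast cell protease 11, a tryptase-like serine protease of basophils. It had 493, 232 and 18 counts in CTL and 493, 196 and 82 in *Prdm1*-CKO mice, or 33.8, 27.5 and 2.66 CPM against 27.8, 19.9 and 5.62 CPM. The groups overlapped throughout, and here the *Prdm1*-CKO mice spread widely too. The log2 fold change was -0.27 (SE 0.82), -0.78 without CTL replicate 3 and 0.23 without CTL replicate 1. *Cpa3* encodes the granule metalloprotease carboxypeptidase A3, made by mast cells and, at lower levels, by basophils. It had 297, 162 and 22 counts in CTL and 108, 81 and 135 in *Prdm1*-CKO mice, or 20.3, 19.2 and 3.26 CPM against 6.09, 8.24 and 9.25 CPM. Its pattern was that of *Ms4a2*, with CTL replicates 1 and 2 above and CTL replicate 3 below all *Prdm1*-CKO mice. The log2 fold change was -0.87 (SE 0.60), between -1.33 and -0.52 with each mouse left out.

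*Hdc* encodes histidine decarboxylase, the enzyme that makes histamine. It had 488, 218 and 38 counts in CTL and 253, 101 and 331 in *Prdm1*-CKO mice, or 33.4, 25.8 and 5.62 CPM against 14.3, 10.3 and 22.7 CPM. The groups overlapped, with CTL replicate 3 lowest, and the log2 fold change of -0.47 (SE 0.58) came to -0.01 without CTL replicate 1. *Gata2*, the transcription factor gene, had 119, 28 and 41 counts in CTL and 113, 68 and 154 in *Prdm1*-CKO mice, or 8.15, 3.32 and 6.07 CPM against 6.37, 6.91 and 10.5 CPM. It was the one gene of the 8 whose highest level was in a *Prdm1*-CKO mouse, and it was lowest in CTL replicate 2. Its log2 fold change was 0.44 (SE 0.46), between 0.14 and 0.74 with each mouse left out.

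Of the 8 genes, 6 had a log2 fold change below 0, and their median was -0.67, against 0.01 for all 14555 genes tested. The median was -0.26 with CTL replicate 1 left out and -1.11 with CTL replicate 3 left out. All *Prdm1*-CKO mice were below all CTL mice in 2 of the 8 and above them in 0 of the 8. Across all tested genes, 3.86% were below in this way and 4.56% above. With p adjusted and held under 0.05, edgeR's quasi-likelihood test called 0 genes of any kind, or 0%, whereas DESeq2's Wald test called 7 higher and 2 lower. Before adjustment, p was under 0.05 in edgeR for 0.928% of genes (135) toward higher and 1.42% (207) toward lower levels. These shares are background only, since the 8 genes were chosen with this contrast known.

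**Figure D2:**
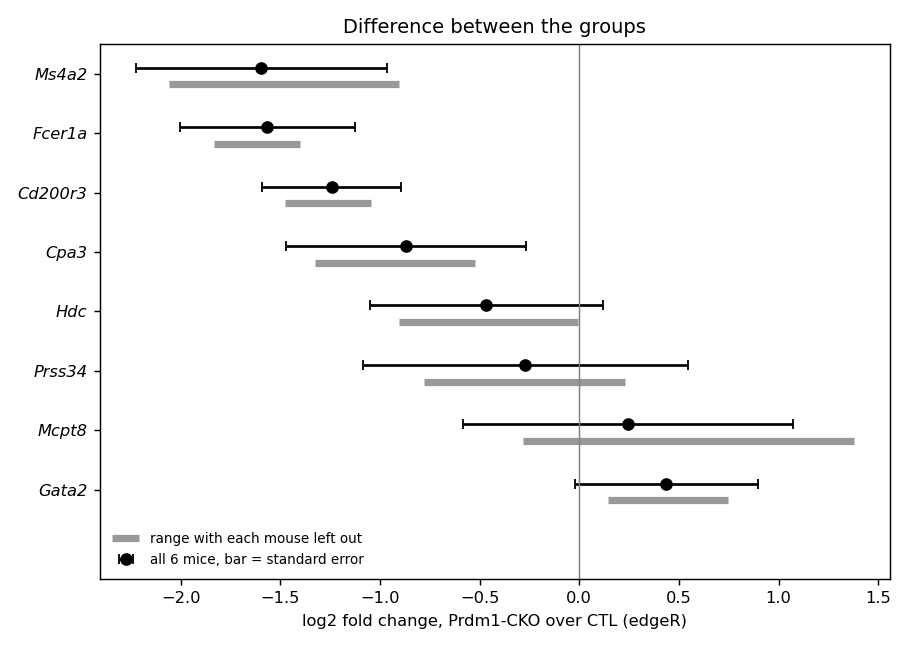
Log2 fold change of *Prdm1*-CKO over CTL Tfh cells for the 8 genes, from edgeR, with points for all 6 mice, black bars of 1 standard error and grey bars for the range with each mouse left out in turn. The grey bars of the receptor genes and *Cpa3* stay below 0, and those of *Prss34* and *Mcpt8* cross 0.

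The genes shared part of their variation between mice. Summed, they reached 164, 161 and 47.9 CPM in CTL mice, against 83.6, 73.8 and 77.7 CPM in *Prdm1*-CKO mice. *Prdm1*-CKO mice thus lay between CTL replicate 3 and the other CTL mice, and averaged 78.4 ± 4.94 CPM (SD, n = 3) where CTL mice averaged 124 ± 66.1 CPM (SD, n = 3). The median coefficient of variation of the 8 genes was 66.7% among CTL and 20.8% among *Prdm1*-CKO mice. It was larger in CTL mice for all 8, but the share of all genes for which this holds was not counted. For the 2464 tested genes in the same range of mean CPM the median was also larger in CTL mice, at 35.1% against 20.05%. Between CTL replicates 1 and 3 alone, without the library that stood apart, the median was 95.9% for the 8 genes and 23.0% for those other genes. CTL replicate 3 had the smallest library of the 6, and its part in the low values was not tested. Its T cell and Tfh marker sum was the highest, at 4992 CPM.

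The summed level was also split by role. The 3 receptor genes together were at 51.7, 78.5 and 29.7 CPM in CTL and 19.2, 18.6 and 20.9 CPM in *Prdm1*-CKO mice, so the *Prdm1*-CKO mice were below every CTL mouse. All 3 are in the study's list of lower genes from these mice, so this separation is partly built in by the choice. The 3 protease genes together were at 70.6, 53.3 and 6.51 CPM in CTL and 43.8, 38.0 and 23.6 CPM in *Prdm1*-CKO mice, which overlapped. In CTL replicate 3 the receptor sum came mostly from *Fcer1a* and *Cd200r3*, since *Ms4a2*, like the protease genes, was at its lowest there. *Mcpt8* made up 1.23% of the summed level of the 8 genes in that mouse and from 4.12% to 13.4% in the others, whereas *Fcer1a* made up 25.3% there and from 3.17% to 7.51% in the others. *Prss34* counts per *Mcpt8* count also varied, from 0.641 in *Prdm1*-CKO replicate 3 to 4.50 in CTL replicate 3, with 2.02 to 4.14 in the other mice.

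**Figure D3:**
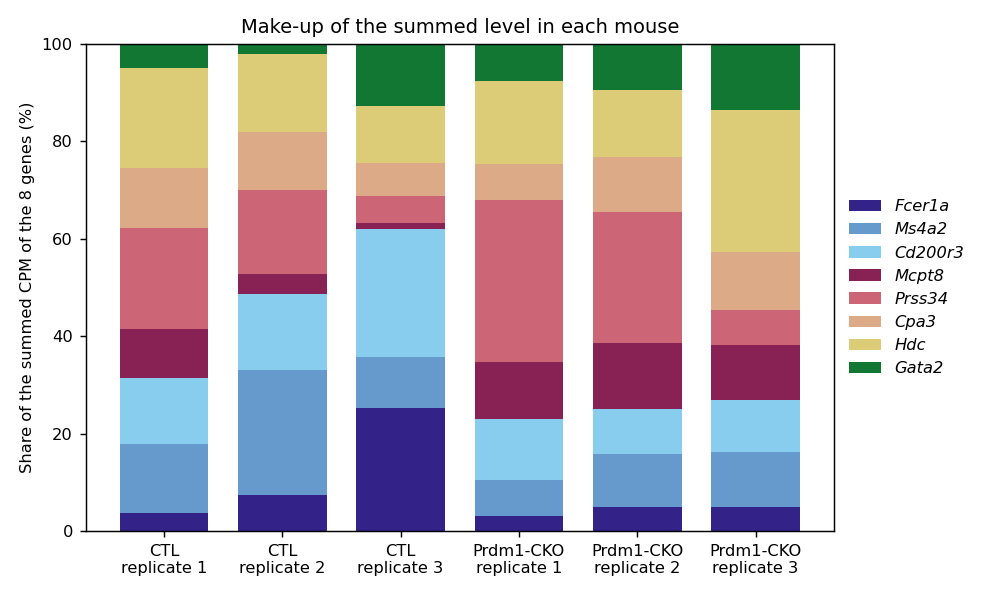
Share of the summed CPM of the 8 genes (vertical axis, percent) that each gene takes in each of the 6 mice. Receptor genes are blue, protease genes red to tan, *Hdc* yellow and *Gata2* green. In CTL replicate 3 *Fcer1a* takes 25.3% and *Mcpt8* 1.23%, and *Prss34* takes 33.2% in *Prdm1*-CKO replicate 1.

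Across the 6 mice, Pearson's r of log2 CPM between the 28 pairs of these genes ran from -0.61 to 0.92, with a median of 0.43 and 20 pairs above 0. These values describe 6 points that share libraries and groups and carry no test. The closest pairs were *Ms4a2* with *Cpa3* (0.92), *Cpa3* with *Hdc* (0.92), *Mcpt8* with *Prss34* (0.80) and *Cd200r3* with *Ms4a2* (0.80). *Fcer1a* went against *Mcpt8* (-0.61) and *Gata2* (-0.58), and *Gata2* went against *Cd200r3* (-0.57) and *Ms4a2* (-0.49). Much of this order rested on CTL replicate 3. Without it the r of *Fcer1a* with *Ms4a2* was 0.98 in place of 0.43, that of *Fcer1a* with *Cpa3* 0.90 in place of 0.10, and that of *Mcpt8* with *Prss34* 0.31 in place of 0.80. The pair *Ms4a2* and *Cpa3* was at 0.95 without that mouse.

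Mast cell protease genes outside the 8 were at or near 0, as the plot of protease genes per kb shows. From a list of 20, the tryptase genes *Tpsab1* and *Tpsb2*, the chymase family gene *Mcpt9*, the receptor gene *Mrgprb2* and the serotonin enzyme gene *Tph1* had 0 counts in all 6 mice, which allows up to 3 counts, or 0.177 to 0.420 CPM, per library. The mucosal mast cell protease genes *Mcpt1* and *Mcpt2*, the connective tissue protease gene *Mcpt4* and *Tpsg1* had at most 10 counts in any mouse. The chymase gene *Cma1* had 28, 22 and 4 counts in CTL and 10, 8 and 14 in *Prdm1*-CKO mice. Among CTL mice it was lowest in replicate 3, as *Cpa3* was. All 35 counts of *Mrgprb1* came from CTL replicate 2. *Kit*, the stem cell factor receptor of mast cells and progenitors, had 136, 72 and 29 counts against 153, 57 and 140, with a log2 fold change of 0.11 (SE 0.43). Of the 20 genes 9 passed the filter, 3 of those had a log2 fold change below 0, their median was 0.13 and edgeR called 0 at an adjusted p under 0.05.

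**Figure D4:**
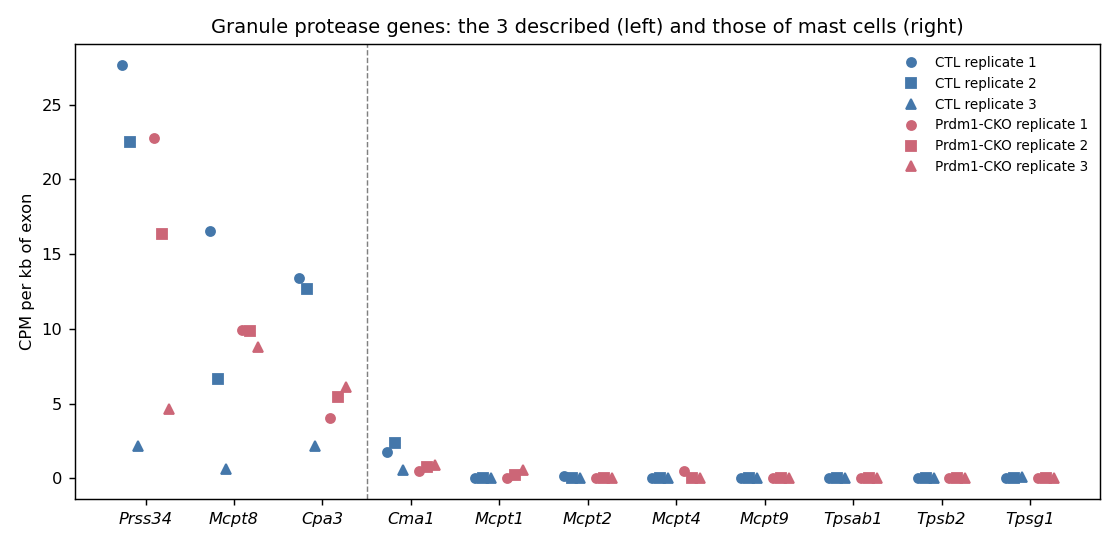
CPM per kb of exon (vertical axis, linear) of the 3 protease genes among the 8 (left of the dashed line) and of 8 mast cell protease genes (right) in each of the 6 mice. The genes on the right sit at or near 0 apart from *Cma1*, whereas *Prss34*, *Mcpt8* and *Cpa3* reach well above it in all mice but CTL replicate 3.

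Of 36 further genes known from basophils, 32 passed the filter, 19 had a log2 fold change below 0 and the median was -0.11, against 0.01 for all tested genes. This median was 0.077 with CTL replicate 1 left out and 0.0069 with a replicate block, so its sign was not stable. After adjustment edgeR called 0 of them, and the chemokine gene *Ccl4*, lower in *Prdm1*-CKO mice, was the 1 gene with an unadjusted p under 0.05. *Ccl4* was at 42.7, 25.6 and 15.2 CPM in CTL and 15.3, 9.15 and 15.1 CPM in *Prdm1*-CKO mice, and edgeR put its log2 fold change at -1.08 (SE 0.40, adjusted p = 0.996). Activated T cells make this chemokine too, and its lowest CTL mouse was level with the highest *Prdm1*-CKO mouse. The integrin gene *Itga2b*, which platelets and basophil progenitors share, was at 12.7, 26.4 and 2.66 CPM against 5.24, 8.03 and 6.64 CPM. As for *Ms4a2*, CTL replicates 1 and 2 were above and CTL replicate 3 below all *Prdm1*-CKO mice, and it had a log2 fold change of -1.07 (SE 0.68). *Il4*, the type 2 cytokine gene that both basophils and Tfh cells express, had 88, 21 and 23 counts against 87, 50 and 67, and a log2 fold change of 0.28 (SE 0.49). *Il13*, another type 2 cytokine gene, had 0 counts in all mice. The eotaxin receptor gene *Ccr3* had 451, 0 and 41 counts in CTL and 301, 182 and 422 in *Prdm1*-CKO mice. Its 0 counts were in CTL replicate 2, where *Fcer1a*, *Ms4a2* and *Cd200r3* were high. That library had the fewest genes with a count, and genes of other lists, such as *Ltf* and *Mpo*, were also at 0 there.

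Genes that act below the IgE receptor differed little between the groups. All 15 of a list that runs from the kinases *Lyn* and *Syk* to the adaptors *Lat* and *Lcp2* passed the filter, and T cells or other lymphocytes use most of them. Their log2 fold changes lay between -0.22 and 0.46 with a median of 0.02, 7 were below 0, and edgeR called 0 of them with or without adjustment of p. *Lat* was at 653 ± 47.8 CPM (SD, n = 3) in CTL mice with a log2 fold change of -0.22 (SE 0.13), and *Lcp2* was at -0.14 (SE 0.11). In both genes all *Prdm1*-CKO mice were below all CTL mice. This held for 2 of the 15 genes, and for 3.86% of all tested genes. *Syk* had the highest value, 0.46 (SE 0.30), at 54.1 ± 2.46 CPM (SD, n = 3) in *Prdm1*-CKO against 39.1 ± 17.9 CPM (SD, n = 3) in CTL mice.

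Marker lists of other myeloid cells were measured beside the 8 genes. Summed markers of eosinophils, 8 genes, ran from 67.4 CPM in CTL replicate 2 to 126 CPM in CTL replicate 1, most of it from the ribonuclease gene *Ear2*, while eosinophil peroxidase (*Epx*) and *Ear1* had 0 counts in all mice. Neutrophil markers together ran from 94.9 CPM in CTL replicate 1 to 196 CPM in *Prdm1*-CKO replicate 2, with CTL replicate 2 at 109 and CTL replicate 3 at 193. This neutrophil sum was thus lowest in the 2 mice with the highest sums of the 8 genes. Not every gene of the list followed it, since *Cxcr2* was highest in those 2 mice (13.2 and 19.3 CPM). Summed megakaryocyte and platelet markers ran from 14.2 CPM in CTL replicate 3 to 44.6 CPM in CTL replicate 1, with *Gp6* at 0 counts in all mice. This sum was lowest in the same mouse as the 8 genes. B cell markers were at 181, 109 and 122 CPM in CTL and 242, 154 and 223 CPM in *Prdm1*-CKO mice, with log2 fold changes above 0 for 10 of 10 genes and a median of 0.83. Macrophage markers were at 1430, 518 and 771 CPM in CTL and 1281, 1056 and 1471 CPM in *Prdm1*-CKO mice. They averaged 906 ± 471 CPM (SD, n = 3) among CTL mice and 1269 ± 207 CPM (SD, n = 3) among *Prdm1*-CKO mice. CTL replicate 1 was above *Prdm1*-CKO replicates 1 and 2. Log2 fold changes were again above 0 for 10 of 10 genes, with a median of 0.45. Of all 14555 genes tested, 7116 had a log2 fold change below 0. edgeR called 0 genes of these marker lists after adjustment. Before it, edgeR's p was under 0.05 for 2 macrophage genes and 1 neutrophil gene toward higher levels. The same held for the eosinophil gene *Siglecf* toward lower levels. Across all tested genes the shares were 0.928% toward higher and 1.42% toward lower levels. The part of these cell types in the levels of the 8 genes was not tested.

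The genes whose log2 CPM followed the mean scaled level of the 8 genes most closely over the 6 mice were *Pik3r1* (Pearson's r = 0.994), *Tbxas1* (0.988), *Tra2b* (0.984), *Uba6* (0.984) and *Prpsap2* (0.981). That mean was 0.83, 0.60 and -0.83 SD units in CTL mice, against -0.26, -0.28 and -0.06 in *Prdm1*-CKO mice. Of 14547 genes ranked, 5.29% had an r over 0.8, and of the 32 further basophil genes 25% (8) did, with a median r of 0.50. They included the cytokine gene *Osm* (0.943), the steroid enzyme gene *Cyp11a1* (0.939), *Il6* (0.903) and *Itga2b* (0.886), and the mast cell gene *Cma1* was at 0.909. Other basophil genes went the opposite way, among them the IL-18 receptor gene *Il18r1* (-0.947), *Neurl3* (-0.64) and *Cebpa* (-0.61). The median r was -0.75 for 9 neutrophil genes, with a range from -0.934 (*Retnlg*) to 0.625 (*Cxcr2*). For 10 T cell and Tfh genes it was -0.67, with a range from -0.876 (*Icos*) to 0.463 (*Cd28*). *Ets1* (0.979) and *Lef1* (0.974), which T cells also express and which were in none of the lists, were among the 20 closest genes. These are likenesses over 6 points without a test. *Tbxas1*, the thromboxane synthase gene of platelets and myeloid cells, had 356, 187 and 95 counts in CTL and 277, 156 and 257 in *Prdm1*-CKO mice.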

How the data were processed

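RNA was measured in Tfh cells of 3 CTL and 3 Prdm1-CKO mice. The authors aligned paired reads of 25 bases with STAR 2.4.2a (submitters' processing notes) to GRCm38 and counted them with featureCounts. The authors deposited raw read counts per gene, 1 table per mouse, with no normalization. Strandedness and the handling of reads that align to several places are not given in the sources used here. Total counts ran from 7147601 to 16973392 per mouse. Of 53379 identifiers, 53274 matched GENCODE M21 without version. Groups came from the sample titles.

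Counts were normalized with TMM, filtered with filterByExpr (14555 genes left) and fitted with edgeR 4.0.16 (quasi-likelihood F test, two-sided, Benjamini-Hochberg adjustment over all genes tested, no covariate) in R 4.3.3. The steps were tested on simulated data. Log2 CPM used a prior count of 2. Each SE was derived from the edgeR test, as the absolute log2 fold change divided by the square root of the F statistic. Nothing says that the mice differ in batch, and p-values weigh the group difference against the estimated spread between these mice. The members and lists were chosen with earlier results of these data known. The text names the 8 genes, listed genes that passed the test, had high levels or large fold changes in their list or were at 0 counts, and the genes of most similar pattern. Osm, Cyp11a1, Il6, Cma1, Kit, Mrgprb1, Il4, Ccr3, Ier3, Il18r1, Neurl3, Cebpa, Retnlg, Cxcr2, Icos and Cd28 were picked after their values were seen. Alternatives were DESeq2 1.42.0 (Wald test, and its size factors in edgeR), no filter, a minimum of 10 counts per mouse, a replicate block, each mouse left out, and, chosen after seeing the data, counts halved and rounded up. Residuals of same-numbered mice correlated at 0.158, 0.0282 and 0.0160, against -0.131 to 0.083 for mice with different numbers. Residuals from a mean of 3 mice sum to 0, so these values cannot decide whether the numbers pair the mice.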

Additional observations from a re-analysis of the deposited data

How the results depend on the processing

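No gene passed an adjusted p under 0.05 in edgeR with any mouse left out. Without a filter edgeR called 1 gene higher after adjustment, and before it 426 higher and 510 lower. DESeq2's Wald test called 7 and 2 after adjustment and 264 and 417 before it. Leaving out each mouse gave from 58 (without Prdm1-CKO replicate 3) to 580 (without CTL replicate 1) higher and from 107 (without Prdm1-CKO replicate 1) to 617 (without CTL replicate 3) lower before adjustment. Of 95 alternative fold changes of the 8 genes, 91 kept their sign. Prss34 turned from -0.27 to 0.032 with the replicate block and to 0.16 without Prdm1-CKO replicate 3, and with single mice left out it ran from -0.78 to 0.23. Mcpt8, at 0.24, ran from -0.28 (CTL replicate 3 left out) to 1.38. The median of the further basophil genes turned from -0.11 to 0.0069 with the replicate block and ran from -0.32 to 0.077 (CTL replicate 1 left out). That of the IgE receptor signaling genes, 0.02, ran from -0.0079 (Prdm1-CKO replicate 3 left out) to 0.0897. The cause of these turns was not tested. The median of the 8 genes was -0.45 with the replicate block, and -0.26, -0.47 and -1.11 with CTL replicate 1, 2 or 3 left out, with 5 to 7 genes below 0. The block changed no other sign. Mcpt8, with 4 counts in CTL replicate 3, drops out at a minimum of 10 counts per mouse, and counts this low limit its fold change. Whether both mates of a read pair were counted is not given in the sources used here. If they were, 1 fragment can give 2 counts, and counts and the floor of 3 counts stand for fewer fragments. In these files 57.9% of the counts between 1 and 10 were even, and with counts halved and rounded up the median of the 8 genes was -0.67.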

Other observations

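The eosinophil and macrophage lectin gene Siglecf was at 2.88, 6.63 and 2.66 CPM in CTL and 0.451, 0.610 and 1.23 CPM in Prdm1-CKO mice. All Prdm1-CKO mice were below all CTL mice, and edgeR put its log2 fold change at -2.39 (SE 0.70, adjusted p = 0.996). The other eosinophil genes that passed the filter, Prg2, Il5ra and Ear2, had log2 fold changes of 0.18, 0.93 and 0.33. The glutamate receptor gene Grm6, known from basophils, had 95 counts in CTL replicate 1 and between 4 and 15 in the other mice. Ier3, an early response gene, was at 8.98 CPM in Prdm1-CKO and 4.62 CPM in CTL mice, with 8 counts in CTL replicate 2 (log2 fold change 0.95, SE 0.66).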
